A study of Mus musculus with 18 samples.

Results

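The 30 genes described here encode proteins of the peroxisome. They comprise 12 peroxins, which build the organelle, and 18 enzymes and transporters that handle lipids and hydrogen peroxide in it. They were chosen as a list of gene symbols, out of 45151 symbols that had a row in both kinds of deposited file. Of the 30 genes, 29 were found under the listed symbol, and Pex2 was found under its older symbol, Pxmp3.

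RNA-seq had been run on 18 libraries of wild-type male C57BL/6J mice, 16 weeks old and kept on regular chow. The groups were 6 libraries of iWAT adipocytes (inguinal, a subcutaneous white depot), 6 of eWAT adipocytes (epididymal, a visceral white depot) and 6 of BAT (brown adipose tissue). The study used these libraries to list the G protein-coupled receptors of fat cells, and the comparisons below ask instead how the peroxisomal genes differ between the depots. The white adipocytes had been freed with collagenase and taken from the floating layer, whereas BAT had been frozen as whole tissue, so that depot and preparation cannot be told apart in any comparison with BAT. In iWAT and BAT a row of the files is a gene with its exons merged, and in eWAT it is a single transcript, so that the kind of file and eWAT cannot be told apart either. For eWAT the transcript row with the most reads was used for each gene. Libraries are named by depot and by the number in their title, taken here to be that of the mouse.

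Peroxisomes shorten very long-chain and branched fatty acids that mitochondria do not take up directly, start the synthesis of ether lipids, and break down the hydrogen peroxide that their oxidases release. Their enzymes are made in the cytosol and carried in by Pex5, which reads a short signal at the end of the protein, or by Pex7, which reads another signal near its start. Brown fat is known to be rich in peroxisomes, and many peroxisomal genes are targets of the nuclear receptor PPARα.

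The labels were checked with marker genes, and RPKM (reads per kilobase of row, scaled to the total reads of the library) was used throughout as the level. The RPKM of Ucp1, which encodes the uncoupling protein of brown adipocytes, averaged 1219 ± 189.5 in the 6 libraries of BAT, 2.82 ± 1.92 in those of iWAT and 0.327 ± 0.166 in those of eWAT (mean ± SD). The summed RPKM of 6 adipocyte markers was between 10993 and 16764 in iWAT, between 9355 and 17294 in eWAT, and between 5662 and 7033 in BAT, and the part of this difference in the comparisons with BAT was not tested. Each library rested on 22929576 to 34512470 reads. There were 3 libraries that stood apart most by markers of other tissues. The sum of 5 skeletal muscle markers was 1340 in BAT 12 against a BAT median of 26.2. The sum of 5 macrophage markers was 1981 in eWAT 15 against an eWAT median of 241, and that of 5 epididymis markers was 77.0 in eWAT 14 and 64.5 in eWAT 15 against a median of 1.97. Counts of genes are therefore also given without these 3 libraries. Libraries with smaller departures were kept. The macrophage sum was 132 in iWAT 7 and 87.0 in iWAT 11 against an iWAT median of 37.0. The sum of 5 endothelial markers was 135 in iWAT 14 against an iWAT median of 42.1, and the muscle sum was 119 in BAT 8. The depots differed in such markers as well: the median sum of the macrophage markers was 241 in eWAT, 37.0 in iWAT and 25.5 in BAT, and that of 5 endothelial markers was 92.6, 42.1 and 56.8. Their part in the comparisons was not tested. In these bulk samples, fewer cells of a type and less RNA per cell cannot be told apart.

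The ends of the reading frames are shown because they carry the signal that Pex5 reads, and because the 30 genes differ in it. The signal was searched as the last 3 codons before the stop codon, with serine, alanine or cysteine first, lysine, arginine or histidine in the middle, and leucine or methionine last. Only the longest complete reading frame of each gene was searched, so that a signal in another frame of the gene would be missed. It was found in 8 of the 30 genes (26.7%), and in 112 of 21370 genes (0.524%) with a complete reading frame in GENCODE M1 on mm9. The 8 genes were Ehhadh, Hsd17b4, Scp2, Gnpat, Pecr, Acot3, Acot4 and Acot8. The last 30 bases of the reading frame are given for 7 of them, with the last 3 codons in capitals:
Ehhadh (chr16:21762157-21762186, minus strand): ttggcaggaccccatagcAGCAAACTGtga
Scp2 (chr4:107717355-107717384, minus strand): cagcttcagccgggcaaaGCTAAGCTGtga
Gnpat (chr8:127413186-127413215, plus strand): ataggaaaaccagccactGCAAAACTAtaa
Pecr (chr1:72305922-72305951, minus strand): gaatcttttaagaagaaaGCCAAGCTCtaa
Acot3 (chr12:85399947-85399976, plus strand): aaaaagaagacaatcccaGCAAAACTGtga
Acot4 (chr12:85384717-85384746, plus strand): acccacagcagagcctccTGTAGACTGtag
Acot8 (chr2:164618392-164618421, minus strand): aagcctcaggtgtcagagAGTAAGCTAtag
Each of these stretches lies within 1 coding exon. Hsd17b4 is named only.

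The pattern does not cover every protein that Pex5 is known to carry: the catalase gene Cat and the alpha-oxidation gene Hacl1 end in codons that do not match it, although their products are known to be carried by Pex5 with variant signals. The acyl-CoA oxidase gene Acox2 does not match it either. They are shown in the same way:
Cat (chr2:103294913-103294942, minus strand): atggctgcgaagggaaaaGCTAACCTGtaa
Hacl1 (chr14:32421197-32421226, minus strand): tttcactggctcacccgtTCTAACATGtga
Acox2 (chr14:9058280-9058309, minus strand): ctgatgcaaagctggaaaCCCAAGCTGtga
The thiolase genes Acaa1a and Acaa1b, whose products are carried in by Pex7, end alike and are given to show how close the pair is:
Acaa1a (chr9:119259122-119259151, plus strand): gctgcggtctttgaatacCCTGGGAACtga
Acaa1b (chr9:119057456-119057485, minus strand): gctgcggtctttgaatacCCTGGGAACtga
Over their coding sequence the pair was 96.55% identical, and 38.09% of the 50-base windows of Acaa1b also occur in Acaa1a. Reads of these genes can therefore be split between them in a way that the files do not show, and their values are uncertain.

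Catalase, which breaks down hydrogen peroxide, was the most abundant of the 30 genes in iWAT, with a mean RPKM of 273 ± 21.1 (SD, n = 6). It was followed there by the transporter gene Abcd2 (148 ± 22.9), the sterol carrier and thiolase gene Scp2 (99.2 ± 7.55) and the phytanoyl-CoA hydroxylase gene Phyh (73.6 ± 7.28). The ranges of Abcd2 and Scp2 overlapped in iWAT, whereas Cat lay above Abcd2 and Phyh below Scp2 in every library. In BAT the order was Phyh (168 ± 6.77), Cat (155 ± 11.2), Scp2 (61.0 ± 6.78) and Ehhadh (46.4 ± 13.9), the gene of a bifunctional enzyme of beta-oxidation. The ranges of neighbours in this order overlapped in BAT, except for those of Cat and Scp2. In eWAT, Scp2 (249 ± 49.9), Cat (243 ± 48.1) and Abcd2 (125 ± 31.6) came first, and each value is that of 1 transcript row. The plot of levels in every library shows that the same few genes were abundant in all 3 depots, with Abcd2 high in white fat and Phyh and Ehhadh high in brown fat.

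**Figure D1:**
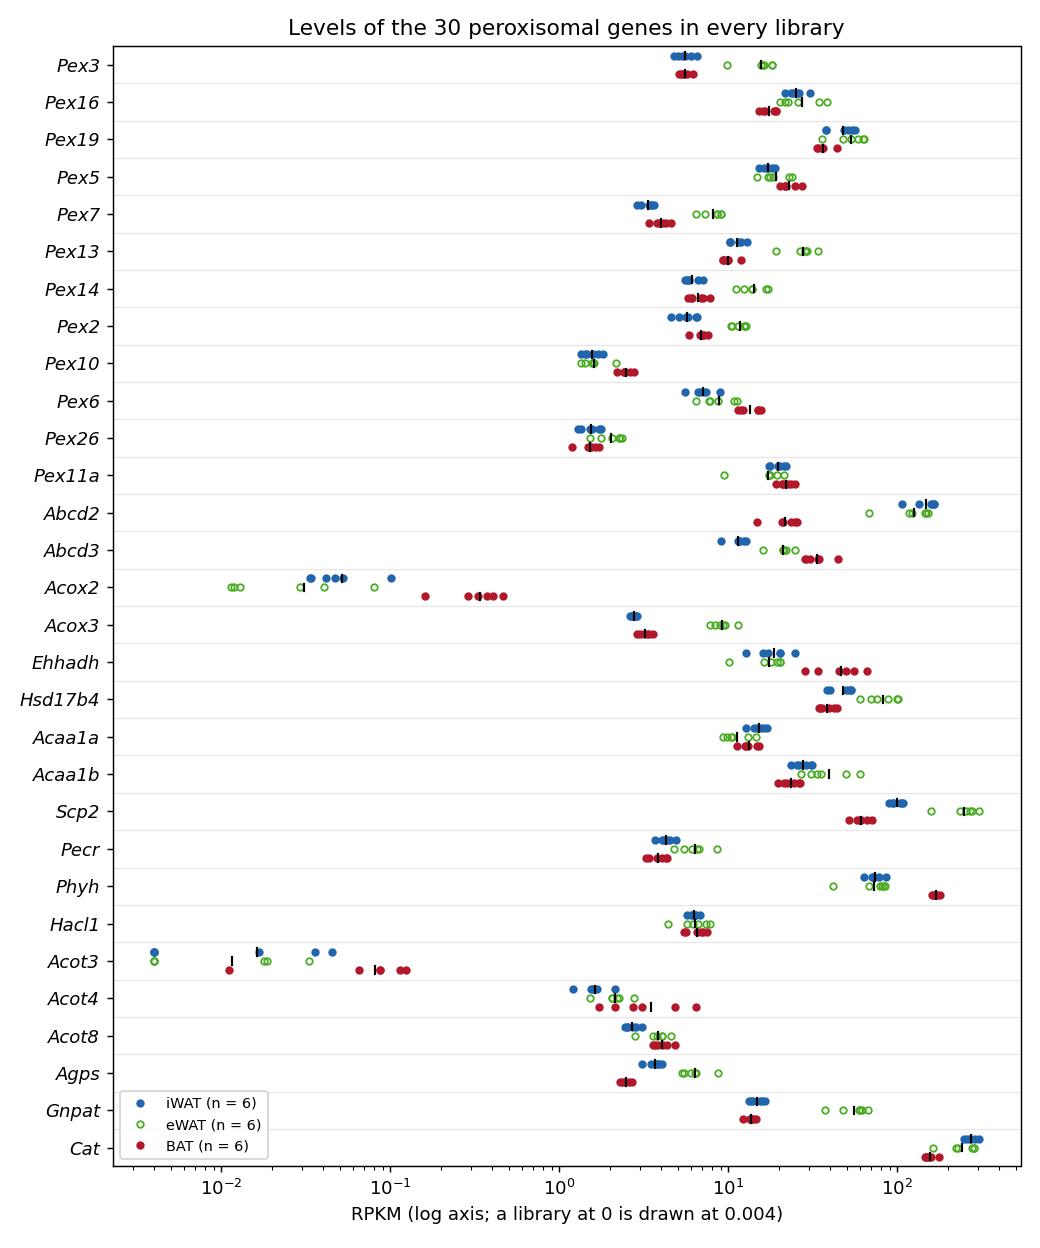
RPKM (log axis) of the 30 genes in each of the 18 libraries, with 1 point per library and a black tick at the mean of 6. Filled points are gene rows (iWAT in blue, BAT in red) and open green points are eWAT transcript rows. Abcd2 lies between 107 and 164 in iWAT and between 14.9 and 25.3 in BAT, and Acot3 and Acox2 lie lowest in each depot.

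At the low end were the thioesterase gene Acot3 and the oxidase gene Acox2, which acts on branched fatty acids and bile acid precursors. Acot3 had 0 to 3 reads per library in iWAT, 0 to 2 in eWAT and 1 to 11 in BAT, and it was too low to be tested. A count of 0 allows up to 3 reads, or an RPKM of 0.0359 to 0.0503 for Acot3 in iWAT, and this limit covers counting error only. Acox2 had 4 to 9 reads per iWAT library, 1 to 7 per eWAT library and 18 to 52 per BAT library.

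The 6 iWAT and 6 BAT libraries were compared first, since each gene has the same row in both. Of the 29 genes tested, 5 were higher in iWAT, 17 were lower and 7 were not called, with edgeR's quasi-likelihood test and a Benjamini-Hochberg adjusted p under 0.05. Over all 19733 rows, 34.0% were called higher in iWAT and 33.6% lower, or 67.6% in all. The median log2 fold change was -0.33 over the 29 genes and 0.01 over all rows. These counts include Acox2, which passed the filter on low counts through BAT alone, and without it 5 of 28 genes were higher and 16 lower, with a median of -0.30 and 13 pairs of ranges apart. The RPKM ranges of iWAT and BAT did not overlap for 14 of the 29 genes, against 48.4% of all symbols tested. Without the 3 libraries that stood apart, 4 of 29 genes were higher and 16 lower, and with the mouse number as a block 5 were higher and 14 lower. These fold changes are relative to TMM scaling, without which the median of all rows moves from 0.01 to 0.27, the share of higher calls among all calls from 50.3% to 65.8%, and the counts for the 29 genes to 8 higher and 12 lower. Without it, Pex19, Hsd17b4 and Acaa1b (0.24) were called higher as well, Pex11a (-0.16), Pex14 (-0.12) and Hacl1 (-0.06) kept their sign and were not called, and the signs of Pex3, Pex26 and Acaa1b turned, the former pair without a call.

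**Figure D2:**
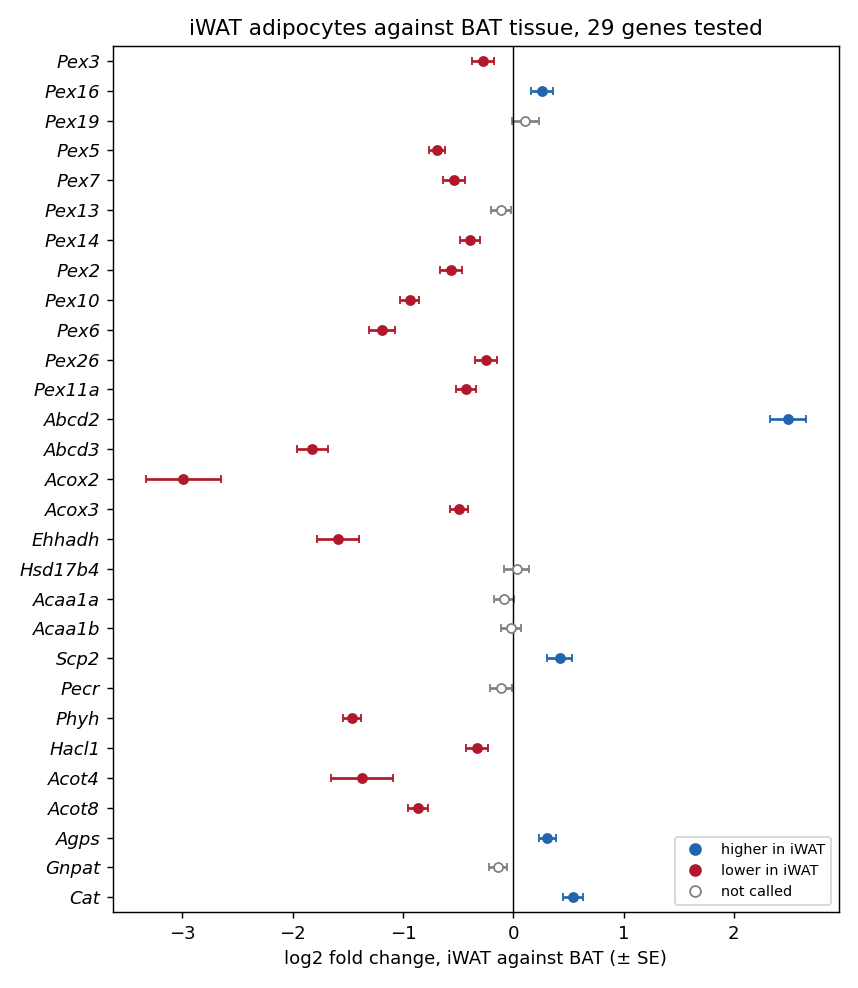
Log2 fold change of iWAT against BAT with its standard error (edgeR, TMM scaling, 6 against 6 libraries) for the 29 genes tested, ordered by role from the peroxins at the top to catalase at the bottom. Abcd2 stands alone on the right at 2.49, and Acox2, Abcd3, Ehhadh, Phyh, Acot4 and Pex6 lie below -1. Without TMM scaling, Pex3, Pex26 and Acaa1b, which lie near 0, turn to values of 0.00 to 0.24.

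The largest difference in favour of white fat was that of Abcd2, a transporter subunit that brings very long-chain and polyunsaturated acyl-CoA into the peroxisome (chr15:90976302-91022238, minus strand, 10 exons). Its RPKM was lowest at 107, had a median of 159 and was highest at 164 in iWAT, against 14.9, 22.3 and 25.3 in BAT. The log2 fold change was 2.49 ± 0.16 (SE), a factor of 5.62 (adjusted p = 9.31e-09, edgeR). The lowest iWAT library was thus far above the highest BAT library. Abcd3, the transporter for branched and long-chain dicarboxylic acyl-CoA (chr3:121461827-121518220, minus strand, 24 exons), showed the opposite pattern. Its RPKM was lowest at 9.09, had a median of 11.6 and was highest at 12.7 in iWAT, against 28.5, 32.2 and 44.3 in BAT. The log2 fold change was -1.82 ± 0.14 (SE; adjusted p = 4.39e-08, edgeR), and the ranges did not overlap. The pair of transporters thus differed between the depots in opposite directions, with or without TMM scaling.

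The genes of beta-oxidation did not move as a block. Ehhadh, which hydrates and dehydrogenates the acyl chain (chr16:21761358-21787917), had an RPKM of 12.7 at the lowest, 18.6 at the median and 24.9 at the highest in iWAT. In BAT these values were 28.4, 47.2 and 66.4, and the log2 fold change was -1.59 ± 0.19 (SE; adjusted p = 5.51e-06, edgeR). No iWAT library reached the lowest BAT library. Hsd17b4, which catalyses the same steps for very long-chain and branched substrates, was not called (log2 fold change 0.03 ± 0.11, adjusted p = 0.804, edgeR), with overlapping ranges of 38.4 to 53.0 in iWAT and 34.6 to 43.6 in BAT. The 2 multifunctional enzymes of the pathway therefore gave different calls, and the difference between them was not tested. Acox3, an oxidase of branched acyl-CoA, was slightly lower in iWAT (-0.49 ± 0.08, adjusted p = 9.55e-05, edgeR), with ranges of 2.62 to 2.87 and 2.88 to 3.55 that just did not overlap. Acox2 was lower in iWAT by a log2 fold change of -2.99 ± 0.34 (adjusted p = 2.74e-06, edgeR), but it passed the filter through BAT alone and had to differ.

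Among the thiolase genes, which end the cycle, Scp2 also encodes a sterol carrier protein, and its row covers both products. It had an RPKM of 88.9 at the lowest, 99.0 at the median and 108 at the highest in iWAT, against 51.5, 59.8 and 71.0 in BAT, and was higher in iWAT (0.42 ± 0.11, adjusted p = 0.00342, edgeR). Acaa1a (-0.08 ± 0.09) and Acaa1b (-0.02 ± 0.09) were not called, with the limit on their reads given above, and their difference from Scp2 was not tested. Pecr, a trans-2-enoyl-CoA reductase, was not called either (-0.11 ± 0.10), and 11.54% of its exonic bases also lie in exons of another gene. Transport and beta-oxidation, with Pecr counted as well, made up 10 genes. Of these, 2 were higher in iWAT, 4 (Acox2 included) were lower and 4 were not called. Over all rows, 34.0% were called higher and 33.6% lower.

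Phyh, which starts the alpha-oxidation of phytanic acid (chr2:4840042-4859789, plus strand), had the smallest adjusted p among the genes lower in iWAT. Its RPKM was 63.4 at the lowest, 72.4 at the median and 85.0 at the highest in iWAT, against 161, 168 and 179 in BAT. The log2 fold change was -1.46 ± 0.08 (SE; adjusted p = 1.86e-09, edgeR), and the spread within BAT was small beside the distance between the depots. Hacl1, the lyase of the same pathway, was called lower by only -0.33 ± 0.10 (adjusted p = 0.0132, edgeR), with overlapping ranges of 5.71 to 6.78 and 5.45 to 7.43. Its adjusted p was 0.131 with the mouse number as a block and between 0.00292 and 0.637 over all alternatives.

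The thioesterases, which release free acids from acyl-CoA, were lower in iWAT where they could be tested. Acot8 was between 2.45 and 3.10 in iWAT and between 3.58 and 4.83 in BAT (-0.86 ± 0.09, adjusted p = 1.66e-06, edgeR). Exons of another gene hold 12.19% of its exonic bases as well. Acot4, which acts on dicarboxylic acyl-CoA, varied widely within BAT, from 1.71 in BAT 6 to 6.39 in BAT 8, and its ranges overlapped although it was called (-1.37 ± 0.28, adjusted p = 0.0007, edgeR). Of the exonic bases of Acot4, 24.52% are shared with another annotated gene, and it was not stated whether reads were counted by strand. Its coding sequence is 75.86% identical to that of Acot3.

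Of the 2 ether lipid genes and catalase, Agps and Cat were higher in iWAT. Agps, which replaces the acyl chain of the ether lipid precursor by an alkyl chain, was between 3.08 and 4.02 in iWAT and between 2.27 and 2.69 in BAT (0.31 ± 0.08, adjusted p = 0.00385, edgeR). Gnpat, which acts just before it, was not called (-0.14 ± 0.08, adjusted p = 0.14, edgeR). Its merged row is 15763 bases long, against 3587 exonic bases of Gnpat in GENCODE M1. Merged rows of other genes were also longer than their exonic bases, such as those of Pex2 (5705 and 2270), Pex13 (11663 and 4644), Scp2 (7735 and 3478) and Abcd3 (6458 and 4089). For Cat both were 2613, and for Hacl1 the row was shorter (3668 and 5123). How much of these counts comes from outside the exons was not tested. Cat (chr2:103294006-103325317, minus strand, 13 exons) was 247 at the lowest, 271 at the median and 305 at the highest in iWAT, against 146, 152 and 176 in BAT. It was higher in iWAT by a log2 fold change of 0.54 ± 0.09 (adjusted p = 0.000138, edgeR), with no overlap.

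Among the 12 peroxins, 9 were lower in iWAT, 1 was higher and 2 were not called, where 33.6% and 34.0% of all rows were called lower and higher. Of the 9, Pex3 and Pex26 turned sign and Pex11a and Pex14 lost their call without TMM scaling. The largest differences were those of Pex6, an ATPase that pulls Pex5 back out of the membrane (5.56 to 8.89 in iWAT, 11.3 to 15.7 in BAT; -1.19 ± 0.12, adjusted p = 7.14e-07, edgeR), and of Pex10, a ubiquitin ligase that marks Pex5 for this step (1.34 to 1.80 against 2.2 to 2.76; -0.94 ± 0.09, adjusted p = 3.34e-07). Pex5 itself followed (15.2 to 18.9 against 20.3 to 27.3; -0.69 ± 0.07, adjusted p = 9.94e-07, edgeR). The ranges of iWAT and BAT did not overlap for any of these 3 genes. Smaller differences, with overlapping ranges, were called for the ligase gene Pex2 (-0.56 ± 0.10), the receptor gene Pex7 (-0.54 ± 0.10), the division gene Pex11a (-0.43 ± 0.09) and the docking gene Pex14 (-0.39 ± 0.09). Of the exonic bases of Pex14, 28.32% lie in exons of another gene as well. The docking gene Pex13 (-0.11 ± 0.09) was not called.

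Pex3, Pex16 and Pex19 insert proteins into the peroxisomal membrane. Pex19, the soluble receptor, was not called (0.11 ± 0.12). Pex3, its docking partner, was called lower (-0.27 ± 0.10, adjusted p = 0.0256, edgeR), and so was Pex26, the membrane anchor of Pex6 (-0.25 ± 0.10, adjusted p = 0.0499). Pex16 was called higher (0.26 ± 0.10, adjusted p = 0.0375, edgeR), with ranges of 21.6 to 30.4 and 15.1 to 19.2 that did not overlap. The call of Pex3 was lost without iWAT 7, 11, 12 or 15 or BAT 8 (adjusted p = 0.051 to 0.072), and that of Pex16 without iWAT 13 or 14 or BAT 11, 12 or 13 (adjusted p = 0.0504 to 0.103). The call of Pex26 was lost without iWAT 7, 11, 12 or 14 or BAT 6, 7, 12 or 13 (adjusted p = 0.0741 to 0.114). With the mouse number as a block, adjusted p was 0.1 for Pex3 and 0.0628 for Pex26, and over all alternatives it ranged from 0.00636 to 0.998 and from 0.0127 to 0.899. For Pex16 this range was 0.000146 to 0.183.

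Other genes of related pathways were taken as lists. Of 52 further peroxisomal genes, 43 were tested, 10 were higher in iWAT and 23 were lower, beside 34.0% and 33.6% of all rows, with a median log2 fold change of -0.41. The largest changes were those of Slc27a2, an acyl-CoA synthetase of very long chains (0.0340 ± 0.0242 in iWAT, 26.5 ± 5.19 in BAT; SD, n = 6), of Ddo, which oxidises D-aspartate (0.651 ± 0.0717 and 6.82 ± 0.681), and of Pex5l, a relative of Pex5 (0.247 ± 0.156 and 0.0436 ± 0.0139). Slc27a2 had 0 to 7 reads per iWAT library, so that it passed the filter through BAT alone and had to differ. The 23 lower genes include it. Of 18 genes of mitochondrial beta-oxidation, 17 were lower in iWAT and 1 was higher, with a median of -1.89. Cpt1b, the carnitine transferase that admits fatty acids to mitochondria, was at 2.63 ± 0.520 in iWAT and 163 ± 12.9 in BAT (SD, n = 6). The medians of both peroxisomal lists were thus much nearer to 0 than that of the mitochondrial list.

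Among 10 PPAR, RXR and coactivator genes, 3 were higher in iWAT and 6 were lower, beside 34.0% and 33.6% of all rows. Ppara, which encodes PPARα, was at 3.26 ± 0.643 in iWAT and 45.7 ± 9.03 in BAT (SD, n = 6; log2 fold change -4.07 ± 0.16, adjusted p = 6.81e-11, edgeR). The coactivator genes Ppargc1b (-3.38 ± 0.10) and Ppargc1a (-2.68 ± 0.35) were lower in iWAT as well.

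In eWAT against BAT, many values turned on the length of the rows, since the merged row of the gene was between 1.0 and 5.283 times as long as the most-read transcript (median 1.402 over the 30 genes). All 18 libraries were fitted together, once with the row length as an offset and once on the counts alone. With the length, 10 of 29 genes were called higher in eWAT and 13 lower, against 39.9% and 34.0% of all 18383 symbols (73.9% in all), and on the counts alone 3 were higher and 20 lower. Called in the same direction both ways were 2 higher and 13 lower, against 29.8% and 27.7% of all symbols (57.5% in all). Acox2 is among the lower genes in each of these counts, although it passed the filter through BAT alone and had to differ. Opposite calls were made for 6 genes (Pex3, Pex7, Pex13, Pex14, Acox3 and Gnpat), against 3.02% of all symbols, and no direction is given for these. A call was made in 1 of the 2 fits for 4 genes (Pex2, Hsd17b4, Scp2 and Cat) and in neither for the other 4 (Pex16, Pex19, Acaa1b and Pecr). The RPKM ranges of eWAT and BAT did not overlap for 20 of the 29 genes, against 61.9% of all symbols, but RPKM depends on the row length too. Without the 3 libraries that stood apart, 2 were higher and 12 lower both ways. The scaling moved more than in iWAT, since without TMM the median of all symbols moves from 0.08 to 0.81, the share of higher calls from 54.0% to 78.8%, and the counts with the length to 17 higher and 9 lower.

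**Figure D3:**
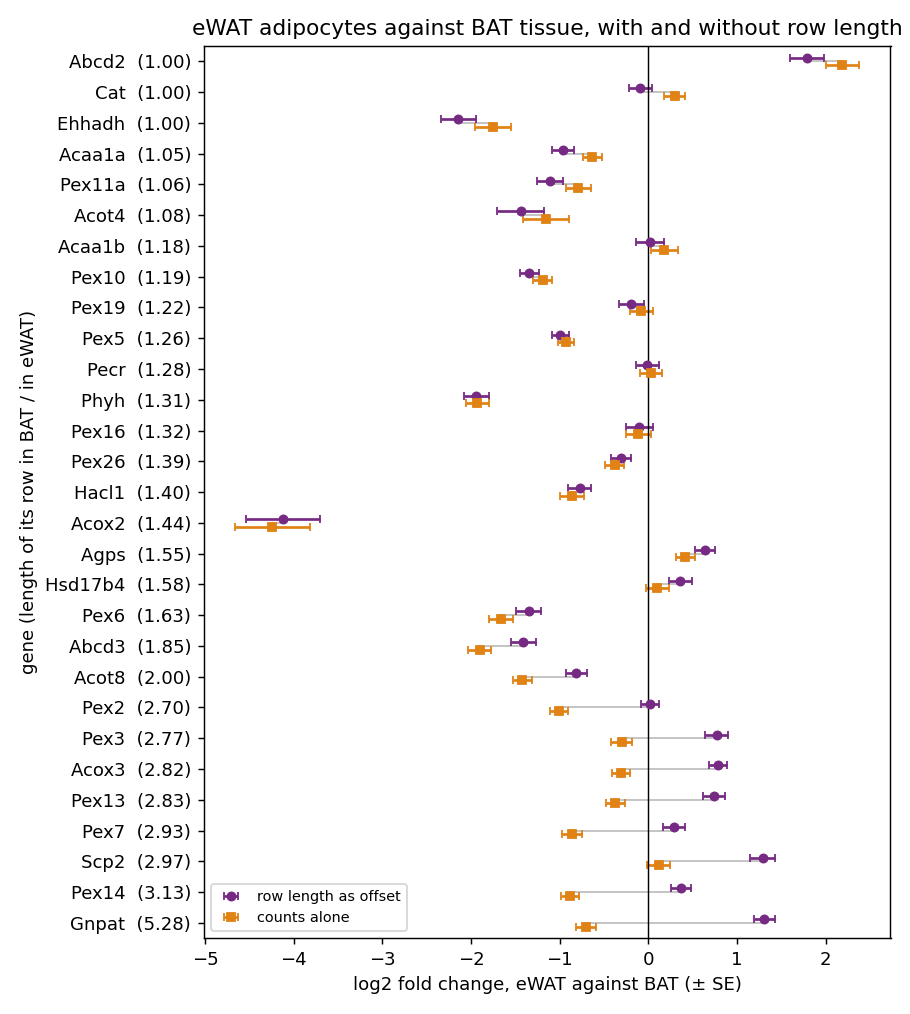
Log2 fold change of eWAT against BAT with its standard error for 29 genes, with the row length as an offset (circles) and on the counts alone (squares), both with TMM scaling. Genes are ordered by how many times longer their row is in BAT than in eWAT, given in brackets. The 2 values lie closest in the middle, as for Phyh (-1.94 and -1.93), and those of Cat at the top, of Pecr in the middle and of Pex2, Pex3, Acox3, Pex13, Pex7, Pex14 and Gnpat near the bottom fall on both sides of 0. With the length and no TMM scaling, Pex16, Pex19, Pex26, Cat and Pecr turn from below 0 to values of 0.43 to 0.72.

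Of the genes lower both ways, Acaa1a (-0.23), Acot8 (-0.09) and Hacl1 (-0.03) were not called with the length and without TMM scaling. Pex26 turned to 0.43 in that setting and was called higher. Abcd2 was higher in eWAT, with an RPKM of 68.0 at the lowest, 133 at the median and 152 at the highest, by 1.79 ± 0.19 with the length and 2.19 ± 0.19 without (adjusted p = 1.01e-07 and 7.07e-09, edgeR). Even the lowest library, eWAT 15, was above the highest BAT library. Agps was the other gene higher in eWAT (0.64 ± 0.11 and 0.42 ± 0.11). Lower in eWAT were Phyh (-1.94 ± 0.14 and -1.93 ± 0.13), Ehhadh (-2.14 ± 0.20 and -1.75 ± 0.20), Abcd3 (-1.41 ± 0.14 and -1.90 ± 0.13) and Acox2, which again passed the filter through BAT alone.

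The peroxins lower in eWAT both ways were Pex5 (-0.99 ± 0.10 and -0.93 ± 0.09), Pex6 (-1.35 ± 0.14 and -1.66 ± 0.14), Pex10 (-1.34 ± 0.11 and -1.19 ± 0.11), Pex11a (-1.11 ± 0.15 and -0.79 ± 0.14) and Pex26 (-0.31 ± 0.11 and -0.38 ± 0.11). The call of Pex26 was lost with the length without eWAT 7, eWAT 15 or BAT 7 (adjusted p = 0.0517 to 0.059) and with the mouse number as a block (adjusted p = 0.163). Over all alternatives, which include both signs, its adjusted p ranged from 0.0026 to 0.169. Acot4, Acot8, Hacl1 and Acaa1a were also lower both ways. For Acaa1a the choice of row mattered, since its transcript row with the highest RPKM gave -0.21 (adjusted p = 0.139, edgeR, the highest over all alternatives, of which the lowest was 3.37e-16 with DESeq2) in place of -0.96 ± 0.12.

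Catalase shows how the scaling bears on eWAT. Its row is the same in all files, so that its own length changes nothing, and its RPKM was between 163 and 285 in eWAT and between 146 and 176 in BAT. It was not called with the length (-0.09 ± 0.13, adjusted p = 0.521, edgeR). It was called higher in eWAT on the counts alone (0.30 ± 0.12, adjusted p = 0.029, edgeR). The same held on the 5632 rows tested among those that both kinds of file share (0.41 ± 0.13, adjusted p = 0.00862, edgeR). The call on the counts alone was lost when mouse number was a block (adjusted p = 0.0785), and over the alternatives with the length its adjusted p ranged from 6.67e-05 to 1. For rows that differ by at most 10% in length, a choice made after seeing the data, 6 of the 30 genes remain, and Abcd2 (2.22 ± 0.19) and Cat (0.34 ± 0.13) were higher, while Ehhadh (-1.72 ± 0.20), Acot4 (-1.11 ± 0.25), Pex11a (-0.76 ± 0.14) and Acaa1a (-0.60 ± 0.12) were lower. Over the 8276 symbols with such rows, 35.9% were higher in eWAT and 32.8% lower.

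The transcript rows also show what a merged row of Scp2 combines. The gene is known to yield a long product with thiolase activity and, from a start inside the gene, a short sterol carrier protein. The most-read row that lies in the 3' part alone (chr4:107716446-107743914, 5 exons) had an RPKM of 272 to 527 over the 6 eWAT libraries. The most-read spliced row that lies in the 5' part alone (chr4:107759617-107791109, 8 exons) had an RPKM of 16.9 to 30.2. The 3' row was 14.7 to 18.3 times as dense in each library, with a mean ratio of 16.2 ± 1.28 (SD, n = 6). No such ratio was taken for other genes, and the cause of this one was not tested. A read can be counted on several rows of a gene, and the rows of iWAT and BAT do not separate these parts. The levels of Scp2 given for iWAT and BAT thus cover both parts of the gene in 1 value.

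**Figure D4:**
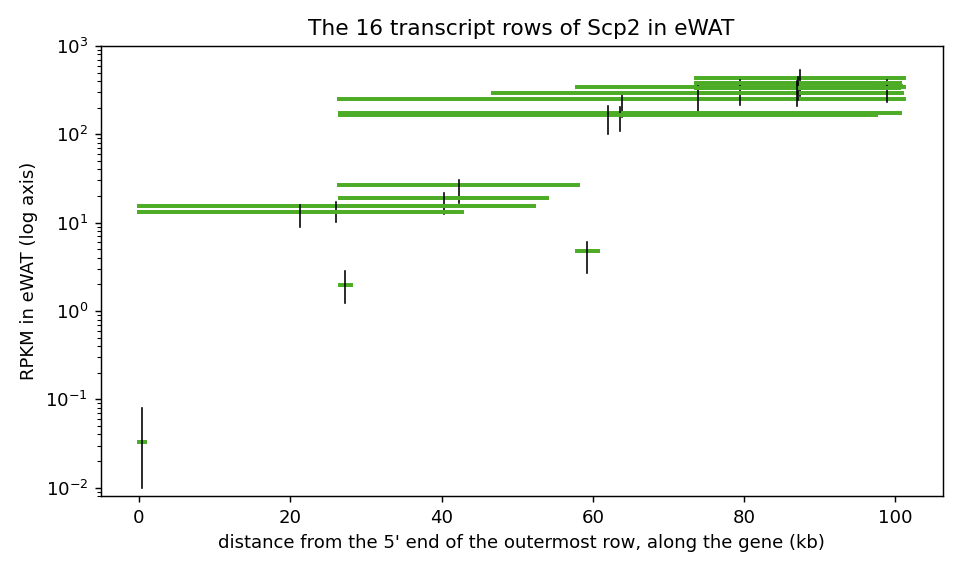
RPKM in eWAT (log axis) of the 16 transcript rows of Scp2, each drawn as a green line over the stretch of the gene it covers, in kb from the 5' end of the outermost row. Each line is at the mean of 6 libraries, and the black bar runs from the lowest to the highest library (0 is drawn at 0.01). Rows that run past 97.4 kb have means between 166 and 429, and the others between 0.0325 and 26.5.

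Between the white depots, iWAT against eWAT, few differences held both with and without the row length. With the length 9 of 29 genes were higher in iWAT and 11 lower, against 24.2% and 28.3% of all symbols (52.5% in all). On the counts alone 8 were higher and 0 lower by edgeR, while 12 and 1 had an unadjusted p under 0.05 in these directions, and no other tool was run on the counts alone. Called both ways were 3 higher and 0 lower, against 7.58% and 9.27% of all symbols (16.9% in all), and 3 genes (Pex2, Pex14 and Gnpat) had opposite calls, against 2.51%. The RPKM ranges did not overlap for 11 of the 29 genes, against 32.4% of all symbols. With rows of near-equal length, 1 of 6 genes was higher and 0 lower (8.49% and 8.8% of 8276 symbols), and 2 and 0 had an unadjusted p under 0.05.

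The 3 genes higher in iWAT both ways were Acaa1a (0.86 ± 0.12 and 0.51 ± 0.11), Hacl1 (0.41 ± 0.13 and 0.48 ± 0.13) and Phyh (0.45 ± 0.14 and 0.42 ± 0.13). Their ranges overlapped between the depots, with Phyh between 63.4 and 85.0 in iWAT and between 41.6 and 84.1 in eWAT. Each call depended on a choice of processing. With the length and without TMM scaling, which moves the median of all symbols from 0.04 to -0.40 and the share of higher calls from 46.1% to 9.78%, Phyh was at 0.02 and Hacl1 at -0.02, neither called. With the transcript row of highest RPKM, Acaa1a was at 0.11 and Hacl1 at 0.27, neither called. Leaving out single libraries gave 2 to 5 genes called both ways, with 2 without iWAT 13 and 5 without eWAT 13, and leaving out the 3 libraries that stood apart gave 2. Abcd2 was called higher in iWAT with the length (0.67 ± 0.19) and not without it (0.25 ± 0.18, adjusted p = 0.331, edgeR), nor with the length and without TMM scaling (0.24). The 3 comparisons share libraries, so that their calls are not independent of each other.

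Within eWAT, 1 library was low for most of the genes. Of the 28 genes with a mean of at least 10 reads, 21 were at their lowest in eWAT 15, and their median log2 ratio to the depot's median was -0.436. Over all 17677 symbols with as many reads in eWAT, 31.4% were at their lowest in eWAT 15, and the median ratio was -0.019. In each other library, that median was between -0.12 and 0.164. Abcd2 was at 68.0 in eWAT 15 against 117 to 152 in the other eWAT libraries, and Phyh at 41.6 against 68.2 to 84.1. The macrophage markers of eWAT 15 were at 1981 and its adipocyte markers at 9355, the highest and the lowest sums in eWAT, and their part in the low values was not tested. Agps went the other way, at 8.70 against 5.30 to 6.42.

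**Figure D5:**
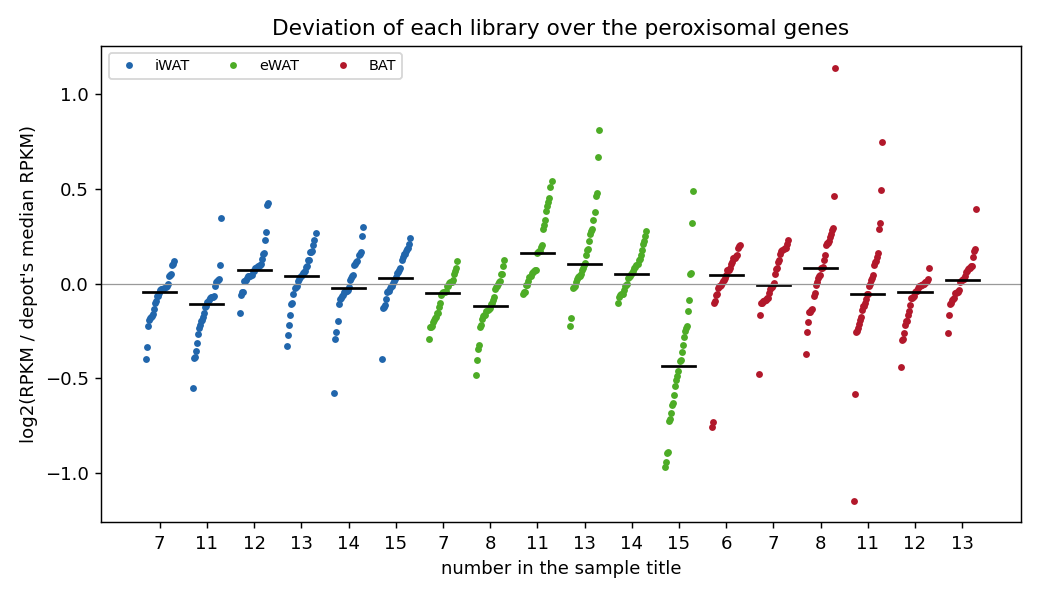
Log2 ratio of each gene's RPKM to the median of its depot (y axis) for the 28 or 29 genes with a mean of at least 10 reads, in each of the 18 libraries (x axis, the number in the sample title; iWAT in blue, eWAT in green, BAT in red), with the points of a library sorted by value and a black line at their median. eWAT 15 has its median at -0.436, and no other library lies below -0.12.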

How the data were processed

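RNA-seq of 18 libraries (iWAT, eWAT and BAT, 6 each) was analysed from the deposited files. According to the study's methods, libraries were made with a NEBNext Ultra kit, reads were mapped to mm9, and the Genomatix Genome Analyzer was used. The submitters' processing notes also name cutadapt (1.16) and HISAT2 (2.1.0). The annotation and the counting rule, including the use of strand, are not given in the sources used here. The authors deposited a read count per row, not normalized, and an RPKM, which equals the count divided by row length and by 1 total of reads per library (22929576 to 34512470). Files of iWAT and BAT hold 53445 merged gene rows, and those of eWAT hold 189660 transcript rows, on which a read can be counted more than once.

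Depots were compared with edgeR (4.0.16, R 4.3.3) by glmQLFit and glmQLFTest on the deposited counts, with TMM scaling and Benjamini-Hochberg adjustment over all rows tested; a call is an adjusted p under 0.05. For iWAT against BAT, 12 libraries were used, and a merged row was kept when 6 or more libraries had 10 or more reads on it (the size of the smallest group where libraries were left out). For the eWAT comparisons, all 18 libraries and 1 row per symbol were used, with the log row length in the offset. Standard errors were derived from the F statistic. The fits were tested on simulated counts. Alternatives were DESeq2 (1.42.0), limma (3.58.1) on log2(RPKM + 0.1) and log2(RPKM + 1), RLE factors, library totals alone, other filters, a minimum fold change, other rows, the mouse number as a block, and single libraries left out. Rows of near-equal length and calls made both with and without the row length were added after seeing the data.

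Nothing states that same-numbered libraries come from the same mouse. Deviations of same-numbered libraries correlated at -0.0379 to 0.1249 (iWAT and BAT, 4 pairs), -0.143 to 0.0528 (eWAT and BAT, 4 pairs) and -0.3111 to 0.1422 (iWAT and eWAT, 5 pairs), and the block was kept as an alternative. As nothing else describes the replicates, p-values measure the spread between these libraries. The genes and lists were chosen with earlier results of these data known. All 30 genes are named, and of each other list up to 3 genes with the largest change among those called. Of the regulators, Rxra, Ppard, Pparg, Esrra and Prdm16 are named besides, with their levels alone. Sequences and identities were computed in Python (3.11.15) with Biopython (1.88) from mm9 and GENCODE M1.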

Additional observations from a re-analysis of the deposited data

Results flagged for a closer look

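In 85 groups of 6 libraries (a gene in a depot with a mean of at least 10 reads), 8 held 1 library whose gap to its neighbour exceeded Dixon's critical value for groups of this size, where chance gives about 1 in 20 groups, or 4.25. In eWAT 15, Pex3 was low at 9.81 (15.6 to 18.2 in the others), Pex11a at 9.39 (17.3 to 21.2) and Phyh at 41.6 (68.2 to 84.1), while Agps was high at 8.70 (5.30 to 6.42). In BAT 8, Pex13 was high at 11.8 (9.23 to 9.95), Pex19 at 43.8 (33.3 to 36.3) and Abcd3 at 44.3 (28.5 to 34.3). In eWAT 13, Pex10 was high at 2.16 (1.34 to 1.61). All values are RPKM, and genes of 1 library are not independent of each other.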

How the results depend on the processing

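Abcd2, Phyh, Ehhadh, Abcd3, Acot4, Agps, Pex5, Pex6 and Pex10 kept sign and call against BAT in both comparisons under each alternative giving a value. The exception was a log2 fold change of at least 1, which ends the call of Pex5 and Agps in both and of Pex10 in iWAT. Acox2 kept them too, but it passed the filter through BAT alone. Signs turned for some other genes, and unless the setting's own construction shows it, the cause was not tested. With library totals alone, limma with 0.1 and limma with 1 added, in this order, iWAT against BAT gave 0.24, 0.24 and 0.23 for Acaa1b and 0.02, 0.02 and 0.01 for Pex26, and totals alone and limma with 1 added gave 0.00 and 0.00 for Pex3. In the same order, eWAT against BAT gave 0.63, 0.59 and 0.57 for Pex16, 0.55, 0.53 and 0.52 for Pex19, 0.43, 0.40 and 0.27 for Pex26, 0.64, 0.62 and 0.62 for Cat, and 0.72, 0.69 and 0.58 for Pecr. iWAT against eWAT gave -0.16, -0.14 and -0.14 for Pex5, -0.06, -0.05 and -0.03 for Pex10, -0.41, -0.38 and -0.26 for Pex26, and -0.02, 0.00 and -0.01 for Hacl1. On the counts alone, eWAT against BAT was -1.01 for Pex2, -0.30 for Pex3, -0.86 for Pex7, -0.37 for Pex13, -0.88 for Pex14, -0.31 for Acox3, -0.70 for Gnpat and 0.30 for Cat, which was 0.41 on shared rows and 0.34 on rows of near-equal length. On the counts alone, iWAT against eWAT was 0.40 for Pex2, 0.27 for Pex7, 0.21 for Pex13, 0.44 for Pex14, 0.25 for Scp2, 0.03 for Abcd3, 0.50 for Gnpat and 0.51 for Acot8, and Pex10 was -0.12 with the transcript of highest RPKM.

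Each of these 3 scalings (totals alone and both limma fits) gave 8 genes higher in iWAT than BAT, 17 higher in eWAT than BAT and 1 higher in iWAT than eWAT. With a log2 fold change of at least 1, the counts of genes higher and lower were 1 and 6 in iWAT against BAT (6346 called of all tested, against 13345), 3 and 8 in eWAT against BAT (8198, against 13581) and 0 and 3 in iWAT against eWAT (3350, against 9652). On the counts alone they were 3 and 20 in eWAT against BAT, and 8 and 0 in iWAT against eWAT (4712 called). Shared rows left 1 gene, Cat, with counts of 1 and 0 (3824 called) and of 0 and 0 (724 called), and rows of near-equal length left 6 genes, with 2 and 4 (5687 called) and 1 and 0 (1431 called), since fewer rows are tested. Without the 3 libraries that stood apart, 5 genes were higher in iWAT than eWAT. Leaving out single libraries gave 4 to 5 higher and 15 to 17 lower in iWAT against BAT (12969 to 13938 called), 8 to 10 and 12 to 13 in eWAT against BAT (13373 to 13992 called), and 7 to 10 and 10 to 11 in iWAT against eWAT (9054 to 9862 called), and both with and without the row length 2 to 2 and 12 to 13, and 2 to 5 and 0 to 0.

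With the mouse number as a replicate block, the counts higher and lower were 5 and 14 in iWAT against BAT (11710 called), 10 and 12 in eWAT against BAT (12436 called) and 9 and 10 in iWAT against eWAT (8386 called). Both with and without the row length they were 2 and 12, and 3 and 0. Depth limited Acot3, which had at most 11 reads in a library, and Acox2 in white fat.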
